A study of Mus musculus with 5 samples.

Results

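The genes described here encode the signalling chains of the T cell receptor complex (Cd3e, Cd3d, Cd3g and Cd247), the kinase and the adaptor that act next to it (Lck and Lat), and a pair of T cell surface proteins, the adhesion receptor Cd2 and Thy1. They were chosen by name, and all 8 were among the 2926 mouse genes of the deposited table. Their scores were read in 692 single cells sorted as CD3+ T cells from the stroke-side brain hemisphere of wildtype C57BL/6 mice, 14 days after a cortical infarct made by light (photothrombosis). In 3 samples the mice had trained on running wheels from day 2, and the controls, 2 untrained samples, had had the same stroke without training. No agent or altered allele is named for either group. Each sample was read by SORT-seq, in which every well of a 384-well plate receives 1 sorted cell and carries its own barcode. The age and sex of the mice, and whether a plate held cells of 1 mouse or of a pool, are not given in the labels. The p-values therefore speak only of how far these plates differ.

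The T cell receptor recognises a peptide held by an MHC molecule, but it has no signalling domain of its own. That function lies in the CD3 epsilon, delta, gamma and zeta chains, the last of which is the product of Cd247. When the receptor is engaged, the kinase Lck, which is carried by the coreceptors CD4 and CD8, phosphorylates tyrosine motifs in these chains. The kinase Zap70 then docks on them and phosphorylates Lat, the membrane scaffold from which the calcium and Ras branches start. Cd2 binds CD48 on partner cells and strengthens contact with them, and Thy1 is a lipid-anchored surface glycoprotein long used to mark mouse T cells. The chains were also what the sort selected for, since the cells had been stained for CD3 protein.

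Of the CD3 chain genes, Cd3g and Cd3d are transcribed away from each other from start sites 1355 bases apart on chromosome 9, and Cd3e lies on the same chromosome, 27825 bases from the start of Cd3d. Cd247 lies on chromosome 1. The 250 bases before each start site are shown because the correlations below compare these neighbours with the unlinked Cd247. Capitals mark the E-box letters CAGGTG, bound by E proteins, and the letters AGGAAG of the Ets family core, each on either strand. The sequences are those of RefSeq on build GRCm38.p6, 5′ to 3′ on the strand of the gene.
Cd3e, chr9:45009612-45009861, minus strand: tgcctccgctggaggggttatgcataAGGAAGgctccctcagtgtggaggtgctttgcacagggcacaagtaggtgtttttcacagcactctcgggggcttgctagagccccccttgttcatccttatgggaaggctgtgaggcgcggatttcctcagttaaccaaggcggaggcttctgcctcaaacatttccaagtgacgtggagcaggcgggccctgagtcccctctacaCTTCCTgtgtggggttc
Cd3d, chr9:44981536-44981785, plus strand: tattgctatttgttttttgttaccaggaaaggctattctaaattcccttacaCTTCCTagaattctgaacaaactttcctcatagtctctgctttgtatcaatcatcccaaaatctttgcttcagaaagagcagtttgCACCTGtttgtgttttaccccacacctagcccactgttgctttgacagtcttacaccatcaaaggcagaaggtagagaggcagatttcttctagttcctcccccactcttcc
Cd3g, chr9:44980432-44980681, minus strand: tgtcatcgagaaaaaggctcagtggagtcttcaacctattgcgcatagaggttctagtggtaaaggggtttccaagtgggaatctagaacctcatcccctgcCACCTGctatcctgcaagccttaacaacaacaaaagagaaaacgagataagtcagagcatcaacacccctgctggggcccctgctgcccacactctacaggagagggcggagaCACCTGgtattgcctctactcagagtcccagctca
Cd247, chr1:165788431-165788680, plus strand: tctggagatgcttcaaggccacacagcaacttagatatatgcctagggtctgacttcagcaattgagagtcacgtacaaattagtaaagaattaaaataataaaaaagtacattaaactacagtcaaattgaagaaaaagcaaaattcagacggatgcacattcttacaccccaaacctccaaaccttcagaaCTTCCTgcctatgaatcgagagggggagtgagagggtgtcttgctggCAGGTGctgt
The E-box letters were in 4 of the 7 promoters listed for 6 of the 8 genes, and in 17.2% of the 32851 promoters of the table. The Ets letters were in 6 of 7 and in 29.5% of all. The Runx letters TGTGGT were found in 1 of 7, a promoter of Lck, against 14.0% of all. The TATA box letters TATAAA were in 0 of 7, against 12.4%. These are matches of letters, not measured binding sites.

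The deposited values were scores and not counts of molecules. They ran from -2.12 to 3.74, with 72.7% of values below 0, so the depth of a cell is unknown and a score above 0 is a range rather than a detected transcript. The values look centred gene by gene, which no label states, so scores of different genes were not ranked as expression levels. Untrained sample 2 stood apart. In it the means of Cd3e, Cd3d and Thy1 were 0 within 1e-06. The highest score of the other 5 genes there was 2.52, which is the root of 190/30 for its 190 cells, within the same tolerance. Over the whole table of 2967 rows, spike-ins included, 1632 had a mean of 0 and 1335 their highest score at that limit in this sample. No other sample showed either feature for the 8 genes. Scores of this kind can arise where residuals are clipped and the other samples are aligned to a single one. The labels do not name such a step. Every comparison between samples, training included, may carry it, and its part was not tested. The share of a gene's variance over all cells that lay between samples had a median of 0.188% over all genes. Over the 8 genes the median share was 0.436%. The plates shared well names, as plates of 1 layout do (221 of 331 names occurred in more than 1 sample), and no cell's scores were those of another cell.

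Among the CD3 chains, Cd3e had mean scores of 0.0847 and 0 in untrained samples 1 and 2 and of 0.102, 0.134 and 0.0647 in trained samples 1, 2 and 3. Cd3d had 0.0553 and 0 in the untrained samples and 0.0504, 0.0468 and -0.0195 in the trained ones. Both genes were close to 0 throughout, and their groups overlapped. Cd3g, the gamma chain, had -0.0845 and -0.0187 in the untrained samples, against 0.0318, -0.0935 and 0.0108 in the trained ones. Cd247 had 0.0583 and -0.0200 against -0.0734, 0.0302 and 0.0157. Neither gene separated the groups either. All of these sample means were small beside the SD over cells, which lay between 0.487 and 0.855 for the CD3 chains. Scores centred gene by gene, as these look to be, have means near 0 by construction. The SD over cells does not measure the spread between samples.

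Lck had means of 0.0837 and 0.0135 in the untrained samples, against 0.118, 0.138 and 0.108 in the trained ones. It was the only one of the 8 genes whose untrained and trained sample means did not overlap, and 25.1% of all genes had groups without overlap. Lat had 0.0956 and 0.0276 against -0.0291, 0.173 and 0.0680, the last 3 spanning both untrained values. Cd2 had -0.0179 and 0.00746 in the untrained samples, against -0.00163, 0.0775 and 0.0482 in the trained ones. Thy1 had 0.142 and 0 in the untrained samples, against 0.149, 0.196 and 0.0814 in the trained ones. The low value of Thy1 in untrained sample 2 is one of the 3 means at 0.

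**Figure D1:**
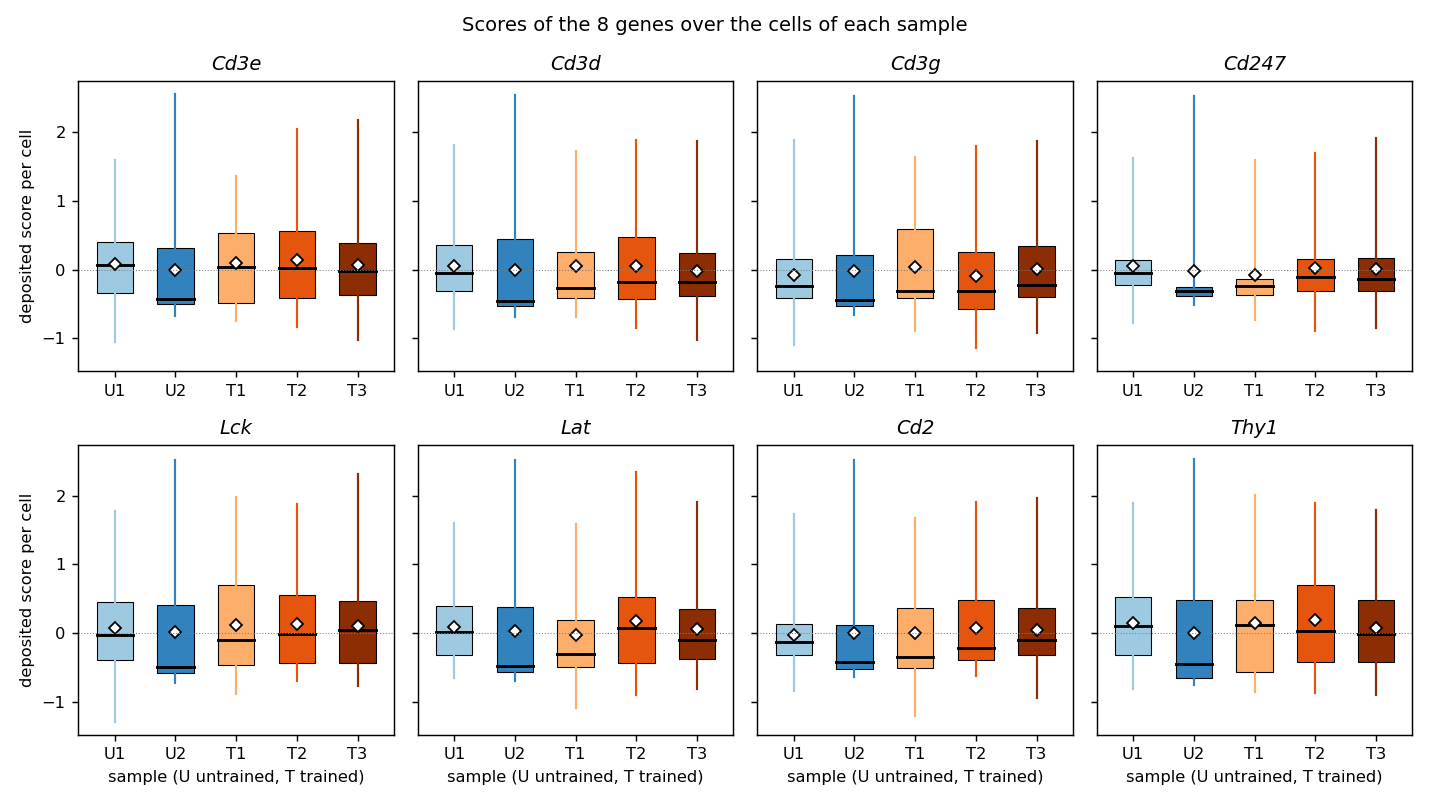
Deposited score per cell of each gene in untrained (U1, U2) and trained (T1 to T3) samples. Lines span the lowest to the highest cell, boxes the middle quartiles, black bars the median and white diamonds the mean. The highest scores of every gene are in untrained sample 2, where medians lie lowest.

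The scores of these genes were spread more widely over cells than those of most genes. The median SD of the 8 genes was 0.537 and 0.867 in untrained samples 1 and 2, against 0.370 and 0.728 over all genes. In trained samples 1, 2 and 3 it was 0.702, 0.651 and 0.586, against 0.478, 0.515 and 0.429. The ratio to all genes averaged 1.35 over samples (SD 0.120, n = 5). Lat had the widest spread, with an SD of 0.709 averaged over samples (percentile 97.5 of all genes), and Cd247 the narrowest, with 0.588 (percentile 84.2).

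Cells above 0 were a minority for most of these genes. For Cd247 they were 40.3% of cells (95% Wilson interval 32.6 to 48.4) in untrained sample 1 and 13.2% (9.07 to 18.7) in untrained sample 2, and 22.7%, 36.3% and 36.9% in trained samples 1, 2 and 3. Thy1 was above 0 in 57.6% (49.5 to 65.4) and 36.3% (29.8 to 43.4) of the untrained cells and in 57.6%, 54.8% and 48.8% of the trained ones. In both genes untrained sample 2 had the lowest share. Of all 692 cells, 142 had none of the 8 genes above 0 and 18 had all 8. The cells with none made up 13.2% (8.61 to 19.7) and 33.7% (27.3 to 40.7) of untrained samples 1 and 2. They made up 18.2% (10.7 to 29.1), 20.2% (14.0 to 28.1) and 13.1% (8.81 to 19.0) of the trained samples. Such intervals cover counting error only.

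**Figure D2:**
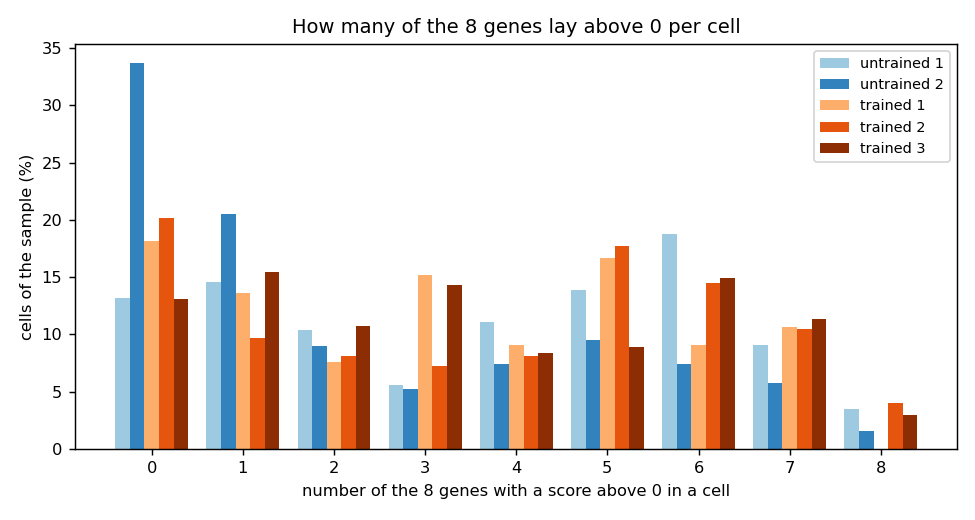
Percent of the cells of each sample (vertical) by the number of the 8 genes with a score above 0 (horizontal), one bar colour per sample. Untrained sample 2 has 33.7% of its cells at 0 genes, and the other samples 13.1% to 20.2%.

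Untrained sample 2 also held most of the cells with high myeloid scores. The mean score of the 6 measured of 20 listed myeloid markers (Cst3, Ctss, C1qb, Tyrobp, Apoe and Fcer1g) was above 1 in 41 of its cells, or 21.6%. The numbers were 0 in untrained sample 1 and 3, 5 and 2 in the trained samples. Averaged over cells, the myeloid list lay at -0.0819 and 0.0289 in the untrained and between -0.175 and -0.106 in the trained samples. In the 51 myeloid-high cells the 8 genes had a mean of -0.395, and 2 of these cells were above 0. The lowest in them was Thy1 at -0.490 and the highest Cd3e at -0.251. A larger set of 175 cells was high (above 1) for the mean of the noncoding RNAs Kcnq1ot1 and A630089N07Rik, and the 8 genes had a mean of -0.373 there. In the remaining 468 cells that mean was 0.243, and Thy1 was above 0 in 67.9% of them. Of the other lists, 2 of 10 oligodendrocyte, 6 of 13 natural killer and 1 of 8 endothelial markers were measured. Of the listed neuron and astrocyte, B cell and erythroid markers 0 of 12, 0 of 11 and 0 of 5 were measured, so such cells could not be scored by them.

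Within samples the 8 genes were correlated with one another over cells. The mean of the 28 pairwise Pearson correlations was 0.252 and 0.368 in untrained samples 1 and 2 and 0.289, 0.308 and 0.315 in trained samples 1, 2 and 3, which averages 0.306 (SD 0.0424, n = 5). The median pair of all genes had 0.0547 to 0.110 in the same samples. Every pair had a positive r in every sample except Cd247 with Lck, at -0.0621 in untrained sample 1. The points of each r are cells of 1 plate, which share its library and the authors' scaling, so these values are descriptions.

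Thy1 had the highest correlations in the set. Its mean r with the other 7 genes was 0.416, followed by Lck with 0.356, Lat with 0.328, Cd3d with 0.310, Cd3e with 0.306, Cd2 with 0.270, Cd3g with 0.264 and Cd247 with 0.201. Thy1 also followed each cell's mean over the genes outside the set most closely, at a mean r of 0.660, and Cd247 least, at 0.259. The strongest pair was Lck with Thy1, at 0.519 on average and 0.392 to 0.664 across samples. Cd3d with Thy1 came next at 0.505, then Cd3e with Thy1 at 0.447 and Lat with Thy1 at 0.413. The kinase and its scaffold substrate, Lck and Lat, had 0.396 (0.246 to 0.489).

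Each CD3 chain had its highest r in the set with Thy1 or Lck and not with another chain. Cd3e with Cd3d had 0.327 (0.265 to 0.399) and Cd3e with Cd3g 0.275 (0.0875 to 0.435). The divergent neighbours Cd3d and Cd3g had 0.213 (0.0738 to 0.383), rank 23 of the 28 pairs. Cd3d with the unlinked Cd247 had nearly the same r, 0.211 (0.102 to 0.293). The lowest pairs were Cd247 with Lck at 0.144 and Cd3e with Cd247 at 0.126.

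**Figure D3:**
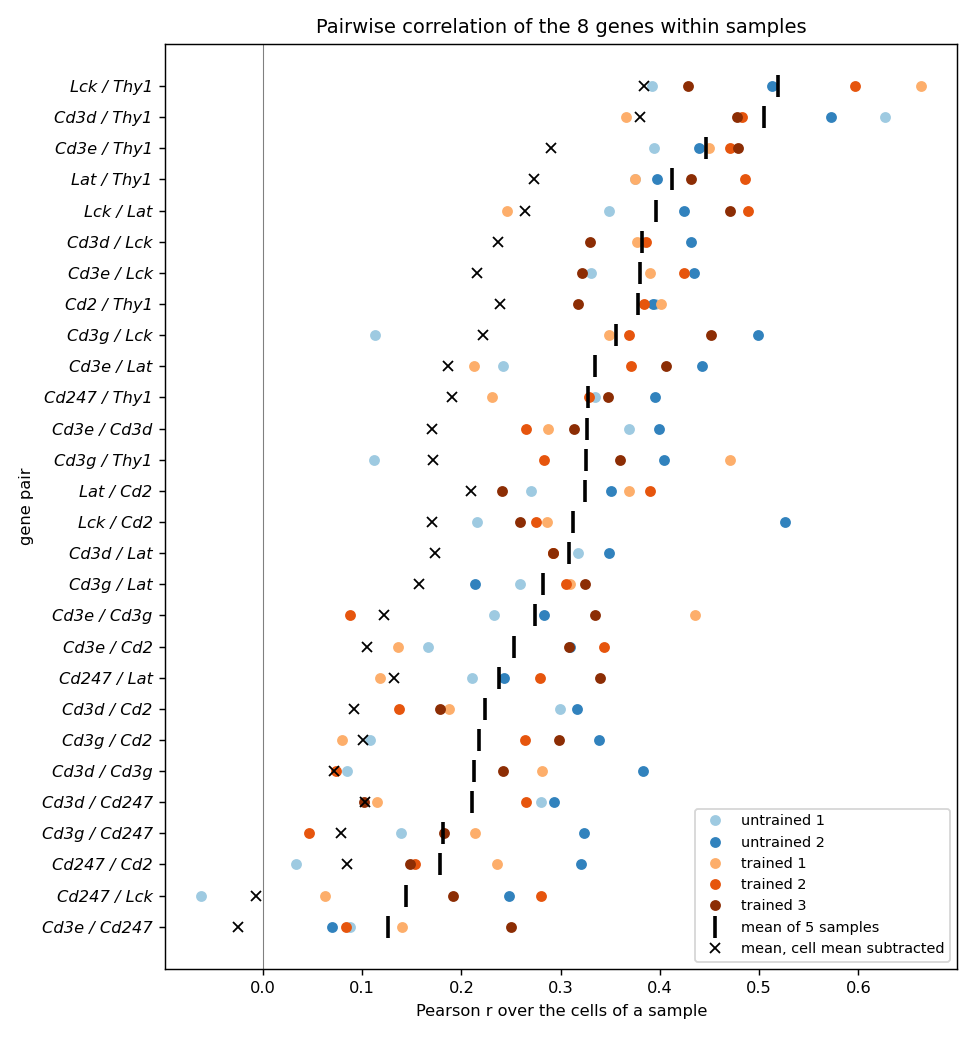
Pearson r over the cells of a sample (horizontal) for each of the 28 gene pairs (vertical, sorted by mean). Dots are samples, bars the mean of the 5 samples and crosses the mean after subtraction of each cell's mean over the other genes. The top 4 pairs all include Thy1, and the crosses lie left of the bars.

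The mean of the 8 genes in a cell also followed the rest of the table. It correlated at 0.687 to 0.852 with the mean of all other genes, and at -0.749 to -0.496 with the pair of noncoding RNAs. Against the spike-in RNAs it had -0.191 to -0.0126, and against the myeloid list -0.385 in untrained sample 2 and 0.220 in untrained sample 1. With the mean of the oligodendrocyte markers Mbp and Cnp it had 0.440 to 0.611. The part of these measures in the correlations among the 8 genes was not tested beyond the subtraction and the sets of cells left out below. When each cell's mean over the other genes was subtracted, the mean r of the 28 pairs fell from 0.306 to 0.171. The median of all gene pairs was then between -0.00948 and -0.00499, and a median near 0 follows from the subtraction itself. Lck with Thy1 kept 0.384 and Cd3d with Thy1 0.380. Cd247 with Lck and Cd3e with Cd247 came to -0.00722 and -0.0246. Without the noncoding-high cells the mean r was 0.207, and without the myeloid-high cells 0.293.

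Outside the set, ribosomal protein genes were among the 3 closest genes of 6 of the 8 members. Thy1 was closest to the ribosomal protein genes Rpl19 (mean r 0.646), Rpsa (0.629) and Rplp0 (0.629). Lck was closest to Rps16 (0.559), Rpl17 (0.554) and the actin gene Actb (0.539). Cd3e had Tpt1 (0.556) and Rpl17 (0.540), and Cd3d had Rpl13a (0.516), Rps13 (0.509) and Rpl12 (0.503). Cd3g and Cd247 had other neighbours. Cd3g was closest to Rac2, a small GTPase of blood cells (0.437), Actb (0.417) and the chemokine receptor gene Cxcr3 (0.405). Cd247 was closest to the kinase gene Stk17b (0.303), the transcription factor gene Ets1 (0.295) and H2-K1, which encodes an MHC class I chain (0.288). Lat had Rpl13a (0.467), Tpt1 (0.466) and Fxyd5 (0.446), and Cd2 had Fxyd5 (0.384), Ptprc, which encodes CD45 (0.382), and Rpl19 (0.380). Among all 2925 other genes Thy1 ranked 1 for Cd247, 3 for Cd3d and 5 for Cd2, whereas Cd247 ranked 2123 for Cd3e. For Thy1 itself the closest member, Lck, ranked 54.

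Cells were then gated by their coreceptor scores. A cell was CD8-gated where the mean of Cd8a and Cd8b1 was above 0 and Cd4 was not. It was CD4-gated where Cd4 was above 0 and that mean was not. There were 159 CD8-gated cells (23.0%), 146 CD4-gated cells (21.1%), 57 above both gates and 330 below both. Of these, 50 CD8-gated, 34 CD4-gated and 120 below-both cells lay within 0.25 of a gate. Per sample the CD8-gated cells numbered between 17 and 40 and the CD4-gated cells between 16 and 38. The class above both held as few as 2 cells in a sample and was not tested. Its 8-gene mean over all 57 cells was 0.345, the highest of the classes, against 0.206 in CD8-gated, 0.187 in CD4-gated and -0.152 in below-both cells. The mean of all other genes was also highest in this class, at 0.0834 over cells, against 0.0175, 0.0406 and -0.0791 in the same order. Cells with none of the 8 genes above 0 were 8.18% of CD8-gated, 11.6% of CD4-gated, 3.51% of above-both and 33.3% of below-both cells.

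CD8-gated cells had higher scores than cells below both gates for 6 of the 8 genes in limma with sample as a block (adjusted p under 0.05 over 2923 genes), while 34.3% of all genes were called higher. Thy1 had 0.262 and 0.297 in the CD8-gated cells of untrained samples 1 and 2 and 0.405, 0.539 and 0.356 in those of trained samples 1, 2 and 3. Below both gates it had -0.0645, -0.229, -0.258, -0.102 and -0.134 in the same order. The ranges did not touch, and the difference was 0.529 ± 0.0548 (SE, limma adjusted p = 1.03e-05). Cd3e had 0.223, 0.339, 0.247, 0.373 and 0.306 in CD8-gated cells and -0.205, -0.136, -0.118, -0.140 and -0.165 below both, again with no overlap. Its difference was 0.451 ± 0.0469 (limma adjusted p = 1.03e-05).

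Lck differed by 0.524 ± 0.0870 (limma adjusted p = 0.000461), but unevenly. The difference was 0.0411 in untrained sample 1 and between 0.421 and 0.862 in the other samples. Lat (0.390 ± 0.0656), Cd3d (0.375 ± 0.0509) and Cd3g (0.317 ± 0.0630) were also called. Lat and Cd3g were uneven in the same way, with 0.0465 and 0.0685 in untrained sample 1. In the other samples Lat had 0.405 to 0.592 and Cd3g 0.246 to 0.511. Cd247 (0.123 ± 0.0507, limma adjusted p = 0.0687) was higher in 5 of 5 samples, and Cd2 (0.138 ± 0.0611, limma adjusted p = 0.0867) in 4 of 5. Neither passed the threshold. A difference of the same sign in 5 of 5 samples was held by 7 of the 8 genes and by 39.1% of all genes, for higher values in gated cells. The median difference was 0.382 over the 8 genes and 0.0994 over all genes tested.

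Compared with the same below-both cells, all 8 genes were called higher in CD4-gated cells, and so were 53.1% of all genes. Lat had 0.245 and 0.720 in the CD4-gated cells of untrained samples 1 and 2 and 0.117, 0.345 and 0.0662 in those of trained samples 1, 2 and 3. Below both gates it had -0.0404, -0.250, -0.226, -0.110 and -0.202. Every CD4-gated mean of Lat was above every below-both mean, and the difference was 0.464 ± 0.0824 (limma adjusted p = 0.000969). The other large differences were 0.400 ± 0.0751 for Lck, 0.399 ± 0.0723 for Thy1, 0.388 ± 0.0660 for Cd3g and 0.347 ± 0.0532 for Cd3e. These 5 genes and Cd247 were higher in 5 of 5 samples, as were 55.4% of all genes.

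Cd247 had 0.0828, 0.526, -0.0157, 0.0227 and 0.0815 in CD4-gated cells of the samples in the same order. Untrained sample 2 was far above the rest, and the difference from cells below both was 0.244 ± 0.0732 (limma adjusted p = 0.0134). Cd2 differed by 0.234 ± 0.0771 (limma adjusted p = 0.0205) and Cd3d by 0.173 ± 0.0676 (limma adjusted p = 0.0411), each higher in 4 of 5 samples. Without untrained sample 2, Cd3d came to 0.0849 (limma adjusted p = 0.172) and Cd2 to 0.136 (limma adjusted p = 0.0803), and neither was called. Leaving out trained sample 2 gave 0.196 for Cd3d and 0.242 for Cd2, with limma adjusted p of 0.0650 and 0.0523. Leaving out trained sample 3 or untrained sample 1 gave 0.188 and 0.172 for Cd3d (limma adjusted p = 0.0511 and 0.0657). In these 3 refits the sizes stayed close to those of all samples while the calls were lost. The median difference was 0.367 over the 8 genes and 0.136 over all genes. Both comparisons share the cells below both gates.

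**Figure D4:**
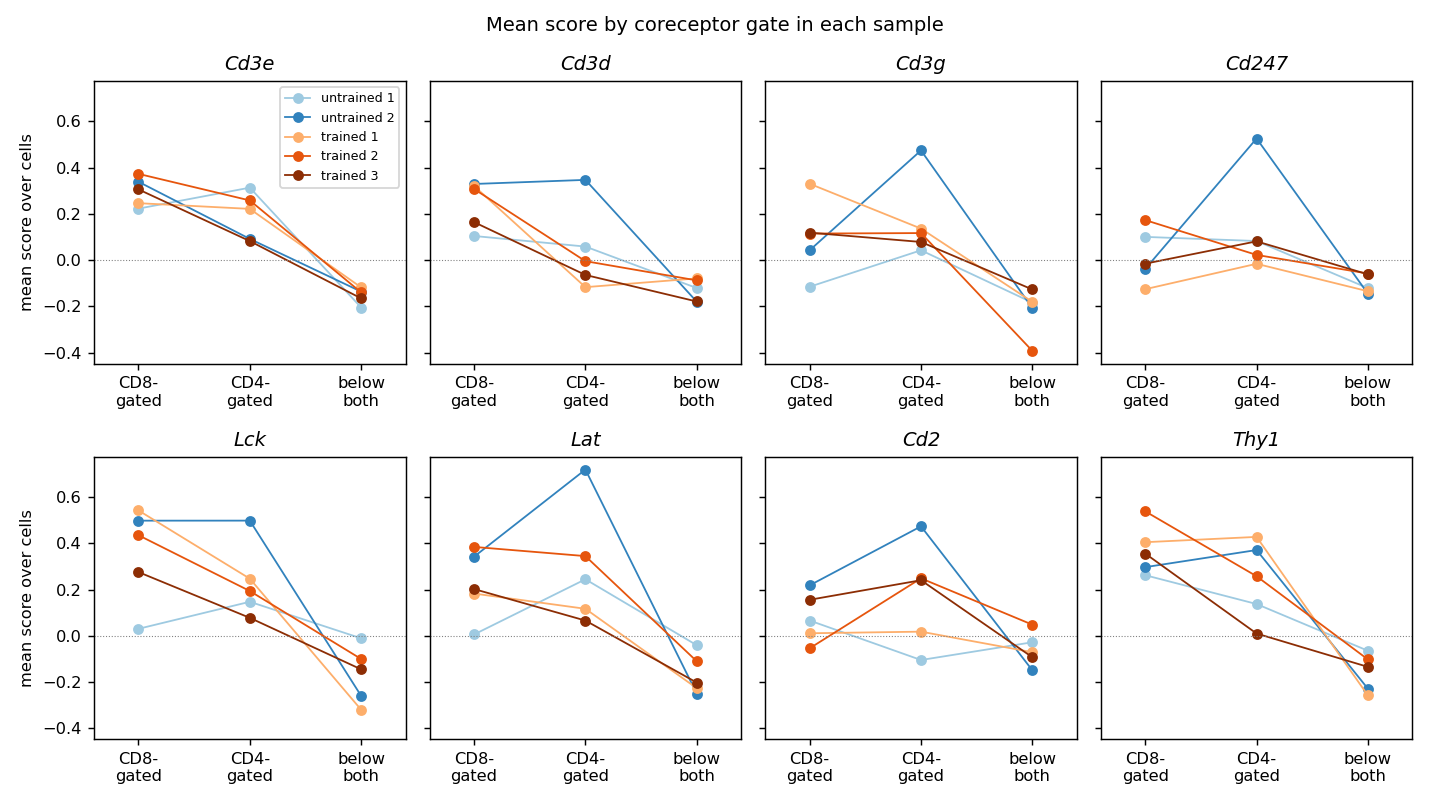
Mean score over cells (vertical) of each gene in CD8-gated, CD4-gated and below-both cells, with one line per sample. In untrained sample 2 the CD4-gated means of Cd247 and Lat, 0.526 and 0.720, lie above those of all other samples.

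Other measures differed between the gated classes as well. The mean of all other genes was 0.0197 in CD8-gated cells, 0.0457 in CD4-gated cells and -0.0873 below both gates, as means of 5 samples. The noncoding-high cells made up 38.5% of the cells below both gates, 15.7% of the CD8-gated and 14.4% of the CD4-gated cells. The myeloid-high cells made up 11.8%, 2.52% and 5.48%. The mean of Mbp and Cnp was 0.0657, 0.0778, 0.190, 0.196 and 0.130 in the CD8-gated cells of untrained samples 1 and 2 and trained samples 1, 2 and 3. Below both gates it was -0.0987, -0.124, -0.196, -0.0973 and -0.111, with no overlap, and in CD4-gated cells it lay between -0.0428 and 0.256. The spike-ins had 0.0198, 0.00479 and 0.0876 in CD8-gated, CD4-gated and below-both cells, again as means of 5 samples. The part of these last 2 measures in the differences was not tested. With each cell's mean subtracted, the same 6 genes were called higher in CD8-gated cells, against 7.87% of all genes, with Thy1 at 0.422 ± 0.0474 and Cd3e at 0.344 ± 0.0448. In CD4-gated cells 5 of the 8 were called (Cd3e, Cd3g, Lck, Lat and Thy1), against 8.52% of all genes. The subtraction takes the same amount from every gene of a cell, however closely that gene follows the cell mean. A median difference near 0 and a more even split of calls therefore follow from it. The members followed the cell mean at a mean r of 0.259 (Cd247) to 0.660 (Thy1), and whether the shift was enough for each was not tested. The median difference of all genes moved from 0.0994 to -0.00761 and from 0.136 to 0.00267 in the CD8-gated and CD4-gated comparisons. Of all calls 230 of 419 and 249 of 459 were then higher, in place of 1002 of 1088 and 1552 of 1659. Cd3d, Cd247 and Cd2 had 0.0403 ± 0.0648, 0.110 ± 0.0678 and 0.101 ± 0.0723. All 8 differences were positive in both comparisons under every setting tried. With the scores as deposited, 87.5% and 90.7% of all genes were positive in the CD8-gated and CD4-gated comparisons. Without the myeloid-high cells 6 and 7 of the 8 genes were called in these comparisons, against 46.5% and 55.2% of all genes in either direction. Without the noncoding-high cells they were 6 and 5 of the 8, against 9.51% and 17.9% of all genes.

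When the 2 gates were compared with each other, 0 of the 8 genes were called by limma, and 5 of 2923 genes (0.171%) were. At an unadjusted p under 0.05 there were 383 genes, among them Cd3d. Its means were 0.105, 0.330, 0.321, 0.308 and 0.165 in CD8-gated cells and 0.0588, 0.347, -0.117, -0.00434 and -0.0640 in CD4-gated cells, in the order untrained samples 1 and 2 and trained samples 1, 2 and 3. CD8-gated cells were higher in 4 of 5 samples, by 0.201 ± 0.0707 (limma adjusted p = 0.260). Thy1 (0.131 ± 0.0701), Lck (0.123 ± 0.0689) and Cd3e (0.104 ± 0.0647) had positive differences. Cd247 (-0.120 ± 0.0834), Cd2 (-0.0958 ± 0.0713), Lat (-0.0748 ± 0.0756) and Cd3g (-0.0715 ± 0.0781) had negative ones. None of the 7 passed, and a p that misses the threshold does not show that the gates were alike. Over cells, Cd3d correlated at 0.260 with Cd8b1 and at 0.0858 with Cd4, and Cd2 at 0.0787 with Cd8b1 and 0.143 with Cd4. Thy1 had the highest r with Cd8b1, 0.337, and Lat the highest with Cd4, 0.258. With Cd8a, the other gene of the CD8 gate, Lck was highest at 0.278, ahead of Thy1 at 0.272. Cd3d had 0.228 with Cd8a and Cd2 0.0373.

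Training was compared over the 5 samples. In all sorted cells 0 of the 8 genes and 0 of 2926 (0%) passed in limma, with 226 genes at an unadjusted p under 0.05. Lck was the one member among those 226, at a mean of 0.121 ± 0.0154 (SD, n = 3) with training and 0.0486 ± 0.0496 (SD, n = 2) without it. They differed by 0.0725 ± 0.0261 (SE, limma adjusted p = 0.520). Without untrained sample 2 it was 0.0375 (limma adjusted p = 0.999). Thy1 differed by 0.0711 ± 0.0416 and Cd3e by 0.0578 ± 0.0302. Leaving out untrained sample 2, where both have a mean of 0, gave -7.10e-05 and 0.0154. Without untrained sample 1 the differences were 0.108 for Lck, 0.142 for Thy1 and 0.1001 for Cd3e. Cd247 (-0.0283 ± 0.0342) and Cd3d (-0.00172 ± 0.0284) had differences below 0, and the other members 0.00891 to 0.0466.

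The share of cells with a positive mean of the 8 genes was 56.9% and 37.9% in the untrained samples and 50.0%, 58.1% and 53.6% in the trained ones. The trained values lay between the untrained ones. The means were 53.9% ± 4.04 (SD, n = 3) and 47.4% ± 13.5 (SD, n = 2), and the two-sided exact permutation test gave p = 0.6, where the 10 splits allow no p below 0.1. The difference of 6.46 percentage points became -3.07 without untrained sample 2 and 16 without untrained sample 1.

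In CD8-gated cells 0 of the 8 genes and 0 of 2926 (0%) passed for training in limma, with 261 at an unadjusted p under 0.05. Cd3g had -0.115 and 0.0428 in the untrained samples, against 0.331, 0.115 and 0.119 in the trained ones. The groups did not overlap, and the difference was 0.224 ± 0.0839 (limma adjusted p = 0.521). With the median over cells in place of the mean, Cd3g differed by 0.497 and was called (limma adjusted p = 0.00647, and 0.00647 to 0.997 over its 13 alternatives). With medians, 9 of 2926 genes (0.308%) were called. By the mean, Thy1 also separated the groups in CD8-gated cells, with 0.262 and 0.297 against 0.405, 0.539 and 0.356. Its difference was 0.153 ± 0.0788 (limma adjusted p = 0.581). These 2 of the 8 genes compare with 25.1% of all genes whose groups did not overlap in CD8-gated cells.

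In CD4-gated cells 0 of the 8 and 0 of 2926 genes (0%) passed in limma, with 71 at an unadjusted p under 0.05, and all 8 differences were negative, as were those of 62.9% of all genes. Without untrained sample 2 only 4 of the 8 were negative, and Cd2 (0.274), Thy1 (0.0944), Cd3g (0.0681) and Lck (0.0256) were positive. With medians over cells 4 were positive, and 3 with the cell mean subtracted, with gates at 0.25 or without the noncoding-high cells. The differences of Lat (-0.306 ± 0.130), Cd247 (-0.275 ± 0.115) and Cd3d (-0.265 ± 0.0985) were the largest, each with a limma adjusted p of 0.999. Untrained sample 2 had the highest CD4-gated mean of these 3 genes. Without it they came to -0.0687, -0.0533 and -0.121, and without untrained sample 1 to -0.543, -0.497 and -0.409. Cd3d and Cd247 were the 2 of the 8 genes whose groups did not overlap in these cells, against 14.5% of all genes. Below both gates 0 of the 8 genes passed, against 13 of 2926 (0.444%), and the differences lay between -0.0531 for Lck and 0.050 for Cd2.

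**Figure D5:**
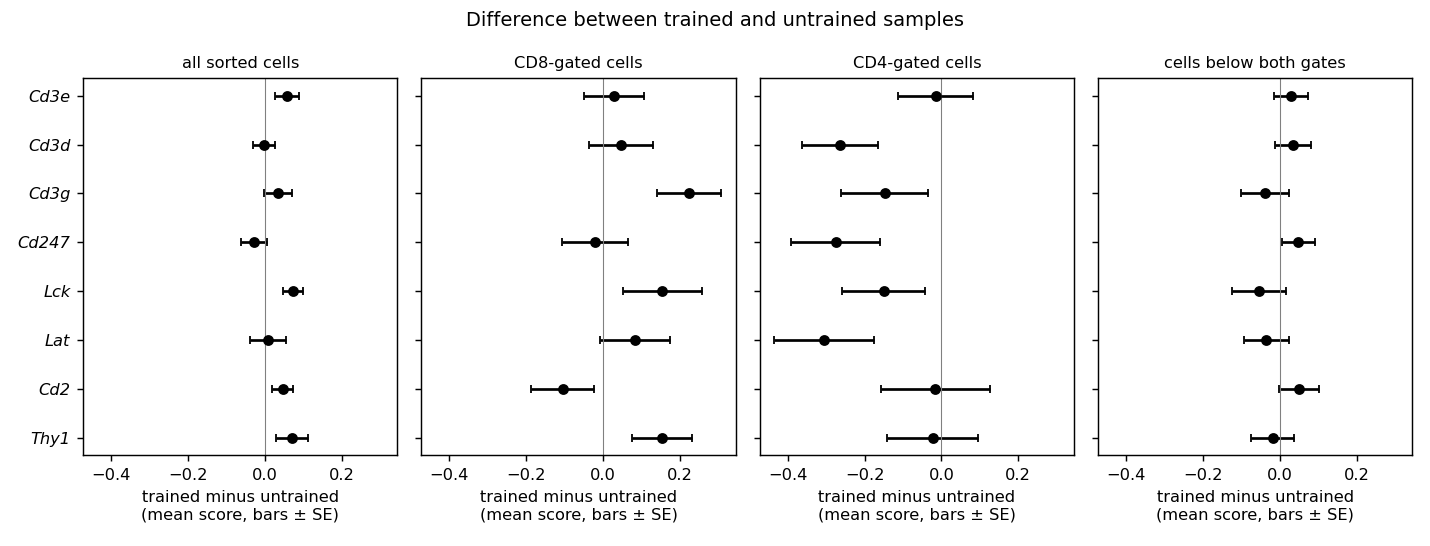
Trained minus untrained mean score (horizontal, points with bars of 1 SE from limma) of each gene in all sorted, CD8-gated, CD4-gated and below-both cells. No point passed the threshold in any of the 4 sets.

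Whether the training difference itself differed between the gates was tested as an interaction, and 0 of the 8 genes and 0 of 2923 (0%) passed in limma (173 at an unadjusted p under 0.05). For Lat, CD8-gated minus CD4-gated cells gave -0.239 and -0.377 in the untrained samples, against 0.0659, 0.0397 and 0.136 in the trained ones. The sign differed between the groups, by 0.388 ± 0.125 (limma adjusted p = 0.758). Lck had -0.117 and -0.000170 against 0.295, 0.241 and 0.198, a difference of 0.303 ± 0.124 with the same adjusted p. Such opposite signs in all samples of each group were held by 2 of the 8 genes and by 6.06% of all genes. Cd3g (0.372 ± 0.133) and Cd3d (0.312 ± 0.127) also had an unadjusted p under 0.05 and did not pass after adjustment.

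The wider pathway was read from a list of 98 further genes of T cell receptor signalling, of which 62 were measured and 59 remained without the coreceptors. In CD8-gated against below-both cells 29 of the 59 were called higher (34.3% of all genes) and 0 lower in limma, with a median difference of 0.137 (0.0994 over all genes). The smallest p-values were those of Ptprcap, whose product binds CD45 (0.566 ± 0.0677), Ptprc, the CD45 phosphatase that activates Lck (0.398 ± 0.0541), and Coro1a, an actin regulator (0.438 ± 0.0676). In CD4-gated against below-both cells 38 were called higher (53.1% of all genes) and 0 lower, with a median of 0.190 (0.136 over all genes), led by Coro1a (0.501 ± 0.0711), the Ras inhibitor gene Rasal3 (0.339 ± 0.0495) and Ptprc (0.387 ± 0.0576).

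Of the 59, 0 were called between the CD8 and the CD4 gate. The costimulatory receptor gene Icos had -0.275 ± 0.0610 (limma adjusted p = 0.107), and Cd5, which encodes an inhibitory receptor, had -0.277 ± 0.0694 (0.131). Ptprcap had 0.269 ± 0.0777 (0.184). Each of the 3 had the same sign in 5 of 5 samples, but they were named for their small p in this comparison. The agreement of sign is therefore no separate support. For training 0 of the 59 were called in any cell set or in the interaction. In all sorted cells Pag1, the adaptor that holds the Lck inhibitor Csk at the membrane, had -0.104 ± 0.0245 (limma adjusted p = 0.317) and Vav1, an exchange factor downstream of Lat, -0.0875 ± 0.0245 (0.456). Ubash3a, a negative regulator of the receptor, had 0.0638 ± 0.0255 (0.559).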

How the data were processed

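Per the labels' protocols, mononuclear cells from a 37% Percoll spin were sorted singly after CD45 and CD3 staining. Reads were processed with Cell Ranger, per the submitters' processing notes. Its version, the genome build and the scaling are not stated there. The deposited table has the name of a count table, but the values the authors deposited are scores (2926 mouse genes and 41 spike-ins by 692 cells, 0 whole numbers). Counts per cell cannot be had from it, so depth and the precision it gives are unknown. A second deposited table of 384 columns held the same values under other names and was not used.

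Cells were assigned to samples by the number in their names and samples to groups by their treatment label. Scores were averaged per gene within each sample and gate (at least 10 cells) and fitted in limma 3.58.1 (R 4.3.3), two-sided. Adjustment was by Benjamini-Hochberg over the whole table, and the threshold was 0.05. Training was the only term, and gates were compared with sample as a block, without Cd4, Cd8a and Cd8b1. The script was tested on simulated data with changes larger than the training differences of the members in all sorted cells. How well it finds differences of that size was not tested. Correlations are over cells within a sample and have no p. Other figures came from Python 3.11.15 with numpy 2.4.6, scipy 1.17.1 and pandas 2.3.3.

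The members, gene lists, gates and settings were chosen with earlier results of these data known. Named genes are the 8 members, up to 3 pathway genes a direction with the smallest p, and the 3 closest genes of each member by mean r, and not all of those are printed. The settings tried were another scale, subtraction of each cell's mean, medians, weights by cells, other gates, and leaving out marker-high cells or a sample.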

Additional observations from a re-analysis of the deposited data

Results flagged for a closer look

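For Lat and Lck, the difference between CD8-gated and CD4-gated cells was negative in both untrained samples and positive in all 3 trained samples. These were 2 of 8 genes examined, and 6.06% of 2923 genes had opposite signs in this way. The trained minus untrained value was 0.388 for Lat and 0.303 for Lck (limma interaction, adjusted p = 0.758 for both), and for Lck the value of untrained sample 2 was -0.000170. In CD4-gated against below-both cells, untrained sample 2 stood far above the other 4 samples for Lat, at 0.969 against 0.268 to 0.455, and for Cd247, at 0.672 against 0.0806 to 0.204. These were 2 of 25 sets of 5 values examined for a sample standing apart, of which chance alone picks about 1 in 20. That sample also held 41 of the 51 myeloid-high cells. Without these cells the difference over all samples was 0.530 for Lat and 0.279 for Cd247, against 0.464 and 0.244 with them. The values of single samples were not recomputed, so the part of these cells in untrained sample 2 was not tested.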

How the results depend on the processing

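Shares in brackets are of all genes called in either direction under the same setting. The 8 members called higher in CD4-gated than in below-both cells (56.8%) became 5 with the cell mean subtracted (15.7%). They were 5 with medians over cells (14.1%), 5 without noncoding-high cells (17.9%), and 6 to 8 when 1 sample was left out (42.9% to 51.4%). With gates at 0.25 they were 6 (39.3%). The 6 called in CD8-gated cells (37.2%) became 4 with medians, without Cd3g and Lat (6.50%), and 7 with gates at 0.25 (44.1%). Training in CD8-gated cells went from 0 called members (0%) to 1, Cd3g, with medians (0.308%). In the share of cells with a positive 8-gene mean, leaving out 1 sample gave -3.07 to 16 points. The mean r of the 28 pairs was 0.375 as Spearman rho, 0.207 without noncoding-high cells and 0.171 with the cell mean subtracted, and the spread ratio was 2.38 with median absolute deviations. The causes of these shifts were not tested.

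Counts over all genes moved more. CD8-gated against below-both cells gave 1088 calls, and 190 to 1443 under the alternatives. CD4-gated against below-both cells gave 1659 (411 to 1960), CD8-gated against CD4-gated cells 5 (0 to 53), and training below both gates 13 (0 to 138). Of these, leaving out 1 sample gave 556 (trained sample 2) to 1443 (untrained sample 2), 1253 to 1503, 0 (trained sample 1) to 7, and 2 (untrained sample 2) to 32 (untrained sample 1). Leaving out untrained sample 1 gave 3, 8 and 10 calls for training in all cells, in CD4-gated cells and in the interaction, in place of 0. Medians gave 9 for training in CD8-gated cells and 2 in CD4-gated ones, and the 0.25 gate gave 1 in CD8-gated cells. Where an untrained sample is left out, 1 untrained sample remains, the spread in the training fits comes from the trained samples, and the lone sample is assumed to vary like them. Training was not analysed in pairs, because the labels do not say that trained and untrained samples with the same replicate number belong together. Fits of the gates with no replicate block gave 0, 7 and 8 called members and 30, 1377 and 1796 genes for CD8-gated against CD4-gated, CD8-gated against below-both and CD4-gated against below-both cells.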
